A study of Homo sapiens with 15 samples.

Results

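Small nucleolar RNA host genes are genes whose introns carry small nucleolar RNAs (snoRNAs), the guides that direct chemical modification of ribosomal RNA. The intron is spliced out and trimmed to the snoRNA, which is held by a box C/D or a box H/ACA protein complex, and the joined exons leave as a polyadenylated transcript. In many non-coding hosts the exons hold only short or interrupted reading frames. Ribosomes that enter such a transcript meet an early stop codon, which sends it to nonsense-mediated decay, so the spliced RNA of these genes is often short-lived while it is being translated. Several of them begin with a run of pyrimidines, the 5′ terminal oligopyrimidine (TOP) tract, which places them under the same growth control as ribosomal protein genes. GAS5, named for its accumulation in arrested cells, is the best-known case of both properties.

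The genes described here are the rows of the normalized count table that carry the symbol SNHG followed by a number, together with GAS5 and ZFAS1. There were 30 of them among 59608 rows. The RNA came from MDA-MB-231, a human triple-negative breast cancer cell line, kept as an adherent culture in dishes for 6 h with 0.1% DMSO or with ZJ-101 at 0.5, 5, 50 or 500 nM. ZJ-101 is a simplified synthetic analog of the marine macrolide superstolide A. Each of the 5 groups had 3 libraries of poly-A RNA, which the labels number as replicates (biological ones for the ZJ-101 doses), and DMSO served as the vehicle control. Values are reads per gene divided by a size factor of the library, called normalized counts below.

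Defining markers of the line were checked first. VIM, CD44, AXL and CAV1 had normalized counts between 7328 and 18413 in every library. ESR1 did not exceed 4.3, PGR did not exceed 17.3 and the leukocyte marker PTPRC did not exceed 3.53, while CDH1 (107 to 206), EPCAM (266 to 320.2) and the endothelial marker PECAM1 (201 to 321) were detected. Libraries held 12415519 to 15284762 reads on genes (median 13320354), of which the 30 host genes took 0.0808% to 0.0969% and mitochondrial genes 0.889% to 2.06%. Replicate 2 at 0.5 nM stood apart over all genes and not only in the host genes. Against replicates 1 and 3 of its dose, its counts gave a chi-square over the degrees of freedom of 11.1 and 16.5. No other pair of replicates exceeded 6.27. This library had the highest value of all 15 in 8 of the 22 tested host genes. Its summed level of 13200.4 normalized counts was the top of a range that began at 11015. The protein-coding snoRNA hosts also had their highest sum there, at 368942. Calls and estimates that changed most without this library are given with and without it.

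Sequences at the 5′ ends of some host genes are shown here, with matches to the pyrimidine tract described above. Each line runs from 20 bases before the annotated start to 30 bases from it, on the transcribed strand and 5′ to 3′, with capitals marking the letters CTTTT, or either of the variants CTTTC and also CCTTT, in the 40 bases around the start. The first is from hg38 at the start of the canonical GENCODE 44 transcript, and the others are from RefSeq on GRCh38. The 4 that follow GAS5 show the tract at or next to the first base, in genes that rose (SNHG4, SNHG12) and in genes that did not pass the test (SNHG5, ZFAS1). The last 3 are genes that passed the test without such a match. A missing match is not a missing pyrimidine run, and the SNHG18 line has an unbroken run of c and t from its annotated start.
GAS5, chr1:173867960-173868009, minus strand: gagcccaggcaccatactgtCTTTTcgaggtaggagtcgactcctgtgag
SNHG4, chr5:139274081-139274130, plus strand: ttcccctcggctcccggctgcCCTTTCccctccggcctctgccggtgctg
SNHG12, chr1:28581844-28581893, minus strand: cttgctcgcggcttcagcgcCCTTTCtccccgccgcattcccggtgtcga
SNHG5, chr6:85678704-85678753, minus strand: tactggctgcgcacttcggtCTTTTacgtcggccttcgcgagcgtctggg
ZFAS1, chr20:49278622-49278671, plus strand: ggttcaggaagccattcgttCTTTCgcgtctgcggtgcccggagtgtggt
SNHG1, chr11:62855856-62855905, minus strand: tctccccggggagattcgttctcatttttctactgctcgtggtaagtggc
SNHG17, chr20:38435299-38435348, minus strand: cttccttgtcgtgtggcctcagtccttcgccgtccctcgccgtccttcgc
SNHG18, chr5:9546180-9546229, plus strand: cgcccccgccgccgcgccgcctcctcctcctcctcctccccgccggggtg

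The 3 five-letter motifs were searched on the transcribed strand only, and one stretch can hold 2 of them, since they overlap. With RefSeq starts, 11 of the 26 host genes that have an entry held a match in the 40-base window (42.3%), against 11.6% of 35116 promoters of all genes. With the canonical GENCODE 44 starts, which differ from the RefSeq starts for many of these genes, 6 of all 30 held one (20%), against 12% of 62700 genes. GAS5 had a match only at the GENCODE start, and SNHG4 and SNHG12 only at the RefSeq start. Among the host genes that rose at 500 nM, 2 of 6 with a RefSeq entry held a match, and among the other tested ones 7 of 13. With GENCODE starts the counts were 1 of 7 and 4 of 15. The share with a match thus differed with the annotation used, and with neither annotation was it higher among the genes that rose. The search finds these letters only, so a gene without a match can still start with a run of pyrimidines, as SNHG18 did.

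The introns carry the product for which the genes are named. RefSeq places 146 snoRNAs inside the 30 genes, classed here by their symbols. Of these, 121 are box C/D RNAs, a class with guides of 2′-O-methylation. Another 21 are box H/ACA RNAs, a class with guides of pseudouridylation, and 4 are the related RNAs of Cajal bodies. Whether each RNA has a known target was not examined. The snoRNAs were assigned by position, without requiring the same strand. SNHG27 and SNHG28 held 0, and some snoRNAs, such as SNORA9 in SNHG15 and SNORA103 in GAS5, overlap an exon of the canonical transcript. SNHG14, the imprinted host of the SNORD115 and SNORD116 clusters, holds 83 of the 146. GAS5 holds 11 and SNHG1 holds 8, all 8 of them box C/D. SNORD27 from SNHG1 is shown as an example of a box C/D RNA, from hg38 on the transcribed strand. Capitals mark the box C letters TGATGA and the box D letters CTGA.
SNORD27, chr11:62855012-62855083, minus strand: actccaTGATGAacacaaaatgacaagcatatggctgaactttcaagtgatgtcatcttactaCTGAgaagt

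Poly-A libraries do not capture mature snoRNAs well, and few were counted here. Of the 146 snoRNAs, 135 had a row, and 1 of these (SNORD104, hosted by SNHG25) had a mean of at least 10 normalized counts, at 12.6. The values below describe the host genes and not the mature snoRNAs. Spliced and unspliced RNA are not separated in them, and for SNHG1, SNHG8, SNHG9, SNHG15 and SNHG19 the merged annotated exons cover the whole gene.

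The level of the host genes in DMSO spanned a wide range. Per kilobase of merged exons, SNHG19 had the highest level at 411 ± 15.2 normalized counts (SD, n = 3), followed by SNHG29 (350.0 ± 6.01), GAS5 (239 ± 4.63), SNHG5 (167 ± 4.82) and SNHG1 (164 ± 15.7). The last 2 did not differ beyond their spread, nor did SNHG15 (46.7 ± 2.38) and SNHG18 (46.4 ± 2.5). SNHG20 was the lowest of the tested genes, at 3.63 ± 0.96. The order depends on which exons are counted. Per kilobase of the canonical transcript alone SNHG29 led, at 7069, and SNHG19 stood at 641. Only genes averaging 10 or more normalized counts across the 15 libraries were tested, which left 22 of the 30. SNHG21 lay just below, at 9.66, with values between 4.42 and 17 in single libraries. SNHG31 (71 reads over all libraries), SNHG27 (18 reads), SNHG25 (13 reads), SNHG14 (10 reads), SNHG22 (2 reads) and SNHG32 (1 read) were close to the limit of detection, and SNHG28 had 0 reads. These 8 genes are not part of any count below, and nothing about their response could be seen at this depth.

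At 500 nM, 7 host genes rose and 1 fell. GAS5, SNHG1, SNHG3, SNHG4, SNHG12, SNHG15 and SNHG17 were higher than in DMSO by 1.16-fold to 1.55-fold, and SNHG18 was lower, at 0.728 of its DMSO level. These are 8 of 22 tested host genes (36.4%), where 17.8% of all 13561 tested genes passed the same test, limma on log2(normalized count + 1) with an adjusted p under 0.05. In the upward direction the shares were 31.8% of the host genes and 7.69% of all tested genes. The median log2 fold change of the 22 genes was 0.19, beside 0.003 over all tested genes, and 17 of the 22 were above 0. The count rests on 2 libraries in particular. Without replicate 2 of DMSO 3 genes passed, and without replicate 2 of 500 nM 4 passed, while without replicate 2 of 0.5 nM 10 passed. Fewer of all tested genes passed as well without either of the first 2 libraries. Without replicate 2 of DMSO the share of host genes passing in either direction was close to that of all tested genes. It stayed higher than that of all tested genes without replicate 2 of 500 nM or of 0.5 nM. Shares in the upward direction alone were not compared in these fits. The values of the 8 genes follow, first the 7 that rose and then SNHG18.

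GAS5, which hosts 10 box C/D snoRNAs and SNORA103 and whose spliced RNA can bind the glucocorticoid receptor, had normalized counts of 1186, 1195 and 1152 in DMSO and of 1348, 1341 and 1410.5 at 500 nM. Every library of every dose lay above the 3 DMSO libraries, though the lowest treated value, 1202 at 5 nM, was close to the highest of DMSO. At single doses 7.43% to 18.9% of all tested genes had every library above DMSO. The share over all doses together was not computed. The rise at 500 nM was small and precise, with a log2 fold change of 0.21 ± 0.05 (SE, limma adjusted p = 0.0079). It passed under all 28 alternative settings. GAS5 lies on the minus strand of chromosome 1 (173858559 to 173868882, GENCODE 44), and 7.75% of its exon bases lie in exons on the other strand.

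SNHG1, the host of SNORD22 and SNORD25 to SNORD31, had 715, 589.8 and 652 normalized counts in DMSO. At 50 nM it had 866, 693 and 837, and at 500 nM 770.5, 932 and 806. The 500 nM libraries were all above the DMSO ones, by a log2 fold change of 0.36 ± 0.10 (SE, limma adjusted p = 0.020). Without DMSO replicate 2, the lowest of its group, the log2 fold change was 0.29 and the adjusted p was 0.112.

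SNHG12 hosts SNORD99 and 3 box H/ACA RNAs. It had 104, 64.7 and 90.3 normalized counts in DMSO and 124, 147 and 125 at 500 nM, with no overlap between the groups. The DMSO libraries were the more scattered, and the log2 fold change, the highest of the 22, had the wide standard error of 0.19 (0.63, limma adjusted p = 0.024). It was 0.44 with an adjusted p of 0.150 without DMSO replicate 2.

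SNHG4, a host of box H/ACA snoRNAs, rose from 202, 192 and 179 normalized counts in DMSO to 252, 321 and 273 at 500 nM. The libraries at 50 nM, with 244, 225 and 295, were already all above DMSO. The log2 fold change at 500 nM was 0.55 ± 0.12 (SE, limma adjusted p = 0.0037), and it passed under every one of 27 alternative settings. SNHG4 starts at the same locus as MATR3, an RNA-binding protein of the nuclear matrix, and 14% of its exon bases lie in exons of a gene on the same strand. MATR3 itself had a log2 fold change of 0.02 (adjusted p = 0.724).

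SNHG15, a host of SNORA9 and a transcript known for its short half-life, had 189, 190.2 and 173 normalized counts in DMSO and 252, 271 and 249.9 at 500 nM. All 500 nM libraries were well above those of DMSO, at a log2 fold change of 0.48 ± 0.11 (SE, limma adjusted p = 0.0038). At 0.5 nM its libraries, at 214, 279 and 218, also lay above DMSO, with replicate 2 the highest of the 15. The change at 500 nM passed under all 28 alternatives.

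SNHG17, the host of SNORA71A to SNORA71D, had 279, 272 and 322 normalized counts in DMSO and 346, 393 and 403 at 500 nM. The groups did not overlap, and the log2 fold change was 0.39 ± 0.10 (SE, limma adjusted p = 0.0093). Without DMSO replicate 2 the adjusted p was 0.052.

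SNHG3, the host of SNORA73A and SNORA73B, had DMSO values of 438, 443 and 447 that were tightly grouped. At 500 nM it had 488, 556 and 508 normalized counts. The log2 fold change of 0.22 ± 0.07 (SE) came near the threshold (limma adjusted p = 0.042) and missed it in 12 of 28 alternatives, with DESeq2 among them (adjusted p = 0.058). SNHG3 overlaps RCC1, the exchange factor of the GTPase Ran, which rose itself by 0.17 (adjusted p = 0.018). The share of SNHG3 exon bases inside RCC1 exons was 5.92%.

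SNHG18, the host of SNORD123, was the only tested host gene that fell at 500 nM. Its normalized counts were 93.2, 103 and 95.4 in DMSO and 73.4, 62.7 and 76 at 500 nM, with all libraries below DMSO. The log2 fold change was -0.46 ± 0.13 (SE, limma adjusted p = 0.021), and DESeq2 gave an adjusted p of 0.067. The 3 libraries also lay below DMSO at 50 nM (67.7, 79.7 and 81.9) and at 0.5 nM (90.7, 75.1 and 85), and at 5 nM they overlapped it. Of all tested genes, 19.6% had every library below DMSO at 500 nM, and this share was not computed at the lower doses. A lower value in such bulk RNA cannot be told apart from a smaller number of expressing cells.

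**Figure D1:**
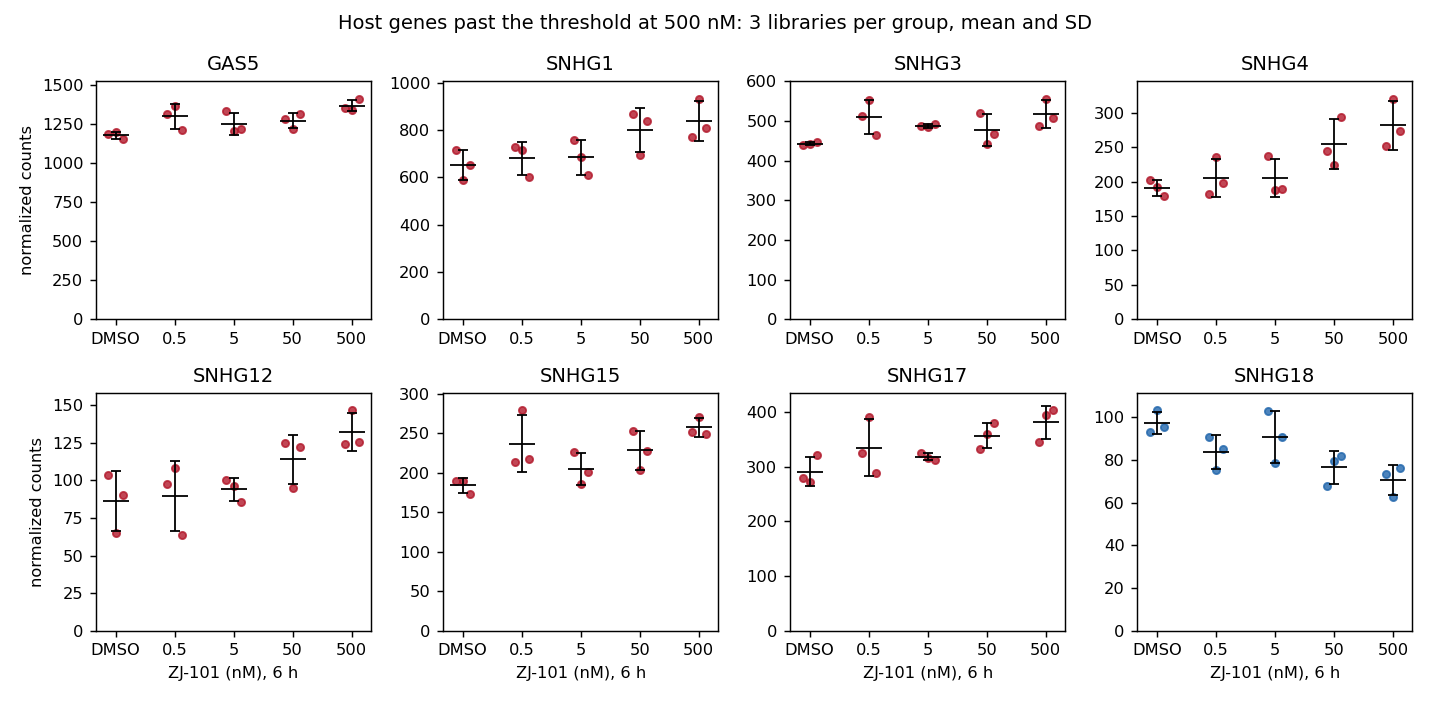
Normalized counts (vertical axis, from 0) of the 8 host genes that passed the test at 500 nM, by dose of ZJ-101 (horizontal axis, nM, with DMSO at the left), as 1 point per library with the mean and SD of 3 libraries. In the red panels the 500 nM points lie above all DMSO points, and in the blue panel for SNHG18 they lie below them.

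The other 14 tested host genes did not pass at 500 nM. Some had an interval that reaches well above 0, some were held near 0, and some were imprecise on both sides of it. SNHG20 had a log2 fold change as high as those of the genes that rose (0.62 ± 0.27, SE), with 28.8, 19.2 and 18.3 normalized counts in DMSO and 37.7, 38.4 and 26.5 at 500 nM, which overlap (limma adjusted p = 0.130). SNHG9, the host of SNORA78, went from 25.9, 22.3 and 28.4 to 32.6, 32.4 and 33.6, without overlap but at a low level (log2 fold change 0.36 ± 0.21, adjusted p = 0.290). Both intervals are wide, from 0.05 to 1.18 for SNHG20 and from -0.09 to 0.81 for SNHG9.

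SNHG7, the host of SNORA17A and SNORA17B, had 669.8, 620.1 and 592 normalized counts in DMSO and 704, 724 and 686 at 500 nM (log2 fold change 0.17 ± 0.08, SE, limma adjusted p = 0.167). SNHG8, the host of SNORA24, had 374, 380.4 and 362 in DMSO and 404, 463 and 427 at 500 nM (0.21 ± 0.11, adjusted p = 0.198). The 500 nM libraries of both were above all DMSO libraries. Both genes passed when replicate 2 of 0.5 nM was left out, with adjusted p of 0.036 and 0.043. That library had 812 for SNHG7 and 541 for SNHG8, each the highest of the 15. ZFAS1, the host of 3 SNORD12 RNAs, had 171, 166 and 175 in DMSO and 180.4, 210.4 and 183 at 500 nM (0.16 ± 0.09, adjusted p = 0.254).

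The hosts with the most reads stayed within narrow intervals around their DMSO level. SNHG29, the host of SNORD49A, SNORD49B and SNORD65, had 3189, 3122 and 3083 normalized counts in DMSO and 3049, 3037 and 3091 at 500 nM. Its log2 fold change was -0.03, with a 95% interval from -0.12 to 0.05. SNHG5, the host of SNORD50A and SNORD50B, had 2167, 2051 and 2079 in DMSO and 2043, 2209.9 and 2131 at 500 nM (0.02, interval -0.13 to 0.17). Both overlapped DMSO, and for both the interval left out the log2 fold changes of SNHG4, SNHG15 and SNHG12.

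SNHG16 (0.07, interval -0.09 to 0.22) and SNHG6 (-0.03, interval -0.21 to 0.16) were near 0 as well. SNHG19, the gene with the highest level per kilobase of merged exons, had 263, 247 and 248 normalized counts in DMSO and 212, 258 and 248 at 500 nM (-0.08, interval -0.28 to 0.11). SNHG26 (0.21, interval -0.16 to 0.58), SNHG10 (0.14, interval -0.09 to 0.37), SNHG30 (0.06, interval -0.23 to 0.34) and SNHG11 (-0.05, interval -0.36 to 0.26) had wide intervals on both sides of 0. Such intervals do not hold these genes near 0, and every 500 nM library of SNHG10 lay above DMSO. In all, 12 of the 22 genes had every 500 nM library above every DMSO library, where 18.9% of all tested genes did, and 1 had every library below, where 19.6% did.

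**Figure D2:**
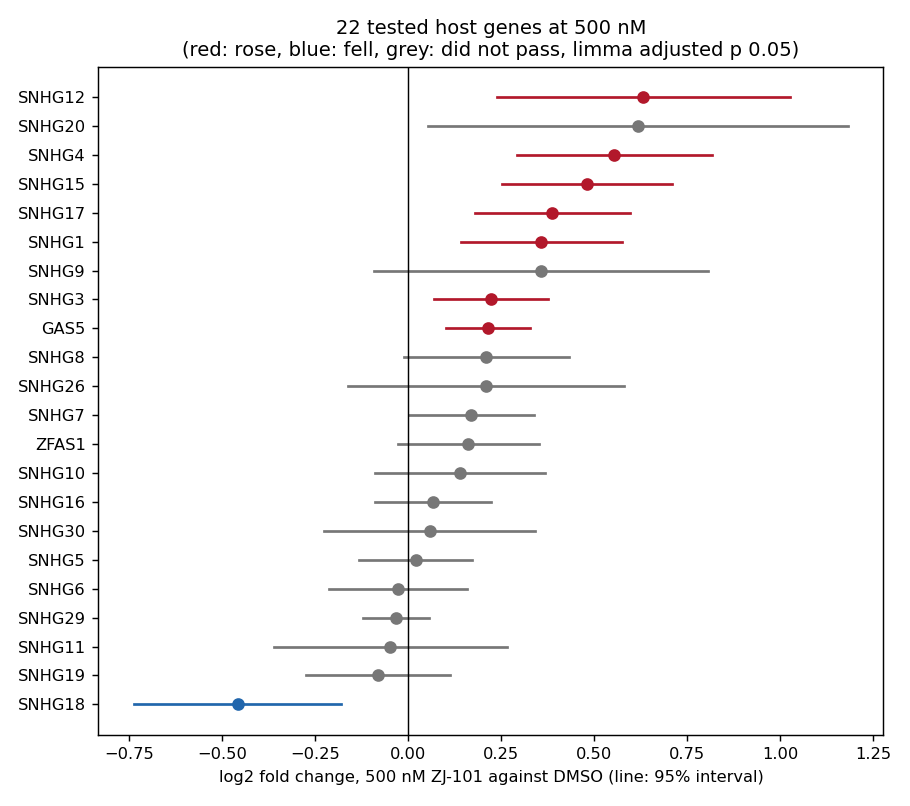
Log2 fold change of each of the 22 tested host genes at 500 nM ZJ-101 against DMSO (horizontal axis), as the estimate with its 95% interval. SNHG12 is at the top with 0.63 and SNHG18 at the bottom with -0.46, and the intervals of SNHG29 and SNHG5 are short and include 0.

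The lower doses gave no host gene past the threshold. At 50 nM, limma called 0 of 22, as did edgeR and DESeq2, where 6% of all tested genes were called (2.29% up and 3.71% down), and at an unadjusted p under 0.05 there were 6 with higher values and 1 with lower values, 7.91% and 9.51% of all tested genes being so. SNHG4 (0.41 ± 0.12, SE, limma adjusted p = 0.063) and SNHG17 (0.30 ± 0.10, adjusted p = 0.093) came closest. In 6 genes (GAS5, SNHG4, SNHG8, SNHG15, SNHG17 and SNHG26) every 50 nM library was above every DMSO library, where 11.6% of all tested genes were. In SNHG18 every 50 nM library was below, and the share of all tested genes with this was not computed. The count of 0 depended on single libraries. Without replicate 2 of 0.5 nM 4 genes passed (SNHG4, SNHG8, SNHG15 and SNHG17), and without replicate 2 of 50 nM, which had the lowest SNHG1 and SNHG4 of its group, 2 passed (SNHG1 and SNHG4). The 6% above is from the fit with all libraries, and the share of all tested genes was not compared in these refits.

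At 5 nM, limma, edgeR and DESeq2 called 0 host genes, where limma called 2.18% of all tested genes, and 1 was higher at an unadjusted p under 0.05, as were 4.96% of all tested genes. The log2 fold changes lay between -0.15 and 0.17. GAS5 and SNHG3 had all 3 libraries above DMSO, where 10.5% of all tested genes did.

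At 0.5 nM the 3 tools again called 0, where limma called 1.17% of all tested genes, and 5 were higher at an unadjusted p under 0.05, as were 6.1% of all tested genes. The median log2 fold change was 0.14 at this dose, against 0.06 at 5 nM and 0.11 at 50 nM, and it was 0.04 without replicate 2. GAS5, SNHG3, SNHG5, SNHG9, SNHG15 and ZFAS1 had every library above DMSO, where 7.43% of all tested genes did. SNHG18 had every library below DMSO, and the share of all tested genes with this was not computed. Replicate 2 was the highest of its group in 17 of the 22 genes. SNHG5, for example, had 2351, 2775 and 2269 normalized counts, and SNHG9 had 40.2, 44.1 and 31.3. Without it the log2 fold change was 0.14 instead of 0.23 for SNHG5, 0.23 instead of 0.35 for SNHG15 and 0.46 instead of 0.57 for SNHG9.

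The dose series was also tested as a slope over the rank of the dose, from DMSO to 500 nM. GAS5, SNHG1, SNHG4, SNHG12, SNHG15 and SNHG17 had a rising slope and SNHG18 a falling one, 7 of 22, where 17.6% of all tested genes had a slope past the threshold (8.23% rising and 9.33% falling). Among the rising ones the steepest was that of SNHG12, at 0.16 ± 0.04 per step of dose on the log2 scale (SE, limma adjusted p = 0.007), followed by SNHG4 at 0.14 ± 0.03 (adjusted p = 0.001) and SNHG1 at 0.09 ± 0.02 (adjusted p = 0.006). SNHG18 had a slope of -0.10 ± 0.03 (adjusted p = 0.018). The slope of GAS5 came near the threshold (adjusted p = 0.041) and missed it in 11 of 28 alternatives, and that of SNHG15 missed it in 7. Over the 12 treated libraries alone 3 genes kept a slope past the threshold (SNHG1, SNHG4 and SNHG12), while GAS5 (adjusted p = 0.407) and SNHG15 (adjusted p = 0.400) did not. Without replicate 2 of DMSO 4 genes passed, and without replicate 2 of 500 nM also 4. Without replicate 2 of 0.5 nM 9 passed, SNHG7 and SNHG8 being added. The share of all tested genes was not compared in the other refits of the slope.

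The estimates by dose were as follows. SNHG1, SNHG4 and SNHG12 were near their DMSO level at 0.5 and 5 nM, with log2 fold changes of 0.05 to 0.15 (-0.10 to 0.02 at 0.5 nM without its replicate 2), and then stood at 0.29 to 0.41 at 50 nM. GAS5, SNHG3 and SNHG15 had estimates of 0.14, 0.20 and 0.35 at 0.5 nM, and of 0.08, 0.14 and 0.15 at 5 nM, but without replicate 2 of 0.5 nM those at 0.5 nM were 0.10, 0.14 and 0.23. No step between neighbouring doses passed for any host gene with limma, edgeR or DESeq2. Of all tested genes, the adjusted test called 0.118% for the step up to 5 nM, 5.01% for the step up to 50 nM and 2.28% for the last step. At an unadjusted p under 0.05, 2 host genes (SNHG5 and SNHG7) were lower from 0.5 to 5 nM, as were 4.14% of all tested genes. Both had their highest value of the 15 in replicate 2 of 0.5 nM, and the count without that library is not given. By the same measure 4 host genes were higher from 5 to 50 nM (8.99% of all tested genes were). From 50 to 500 nM 0 differed, where 5.6% of all tested genes were higher and 7.48% lower. Whether profiles differed in shape between host genes was not tested.

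**Figure D3:**
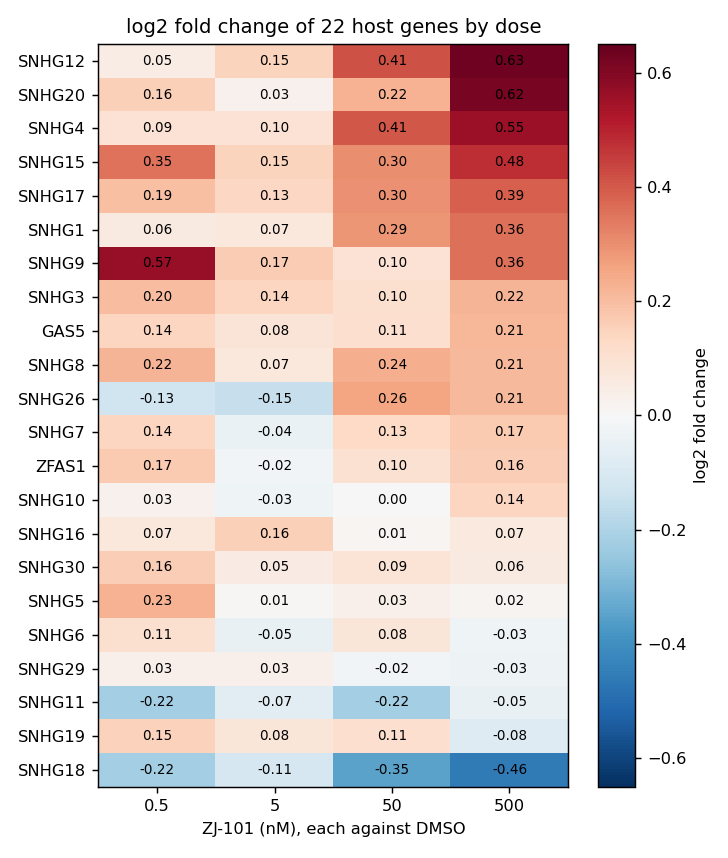
Log2 fold change against DMSO (colour and printed value) of the 22 tested host genes (rows, ordered by the value at 500 nM) at each dose of ZJ-101 in nM (columns). SNHG12, SNHG4 and SNHG1 deepen at 50 and 500 nM, and SNHG9 has its highest value, 0.57, at 0.5 nM.

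Some host genes start beside a gene that runs the other way. The outermost annotated start of SNHG1 lies 50 bases from that of SLC3A2, the heavy chain of the amino acid transporters that is a known target of the factor ATF4. SLC3A2 had 2612, 2433 and 2389 normalized counts in DMSO, 9851, 9062 and 9539 at 50 nM and 10476, 10704 and 10228 at 500 nM. Its log2 fold changes were 0.06, 0.65, 1.94 and 2.08 from the lowest to the highest dose, with an SE of 0.07 at 500 nM. SNHG1 had log2 fold changes of 0.29 at 50 nM (adjusted p = 0.119) and 0.36 at 500 nM. The canonical SLC3A2 transcript, however, starts 24973 bases from the canonical start of SNHG1, and gene-level counts do not show which SLC3A2 start was used.

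Of the other protein-coding neighbours, the 3 beside tested host genes did not pass the test. RPS2, a ribosomal protein gene 53 bases from SNHG9, had a log2 fold change of 0.04 at 500 nM (adjusted p = 0.733). SEMA5A, 94 bases from SNHG18, had 22.1, 27.3 and 11.2 normalized counts in DMSO and did not pass (0.19 ± 0.35, SE, adjusted p = 0.780). TRAF7, 292 bases from SNHG19, was at 0.08 (adjusted p = 0.241). Whether a host gene and its neighbour share a promoter was not tested.

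**Figure D4:**
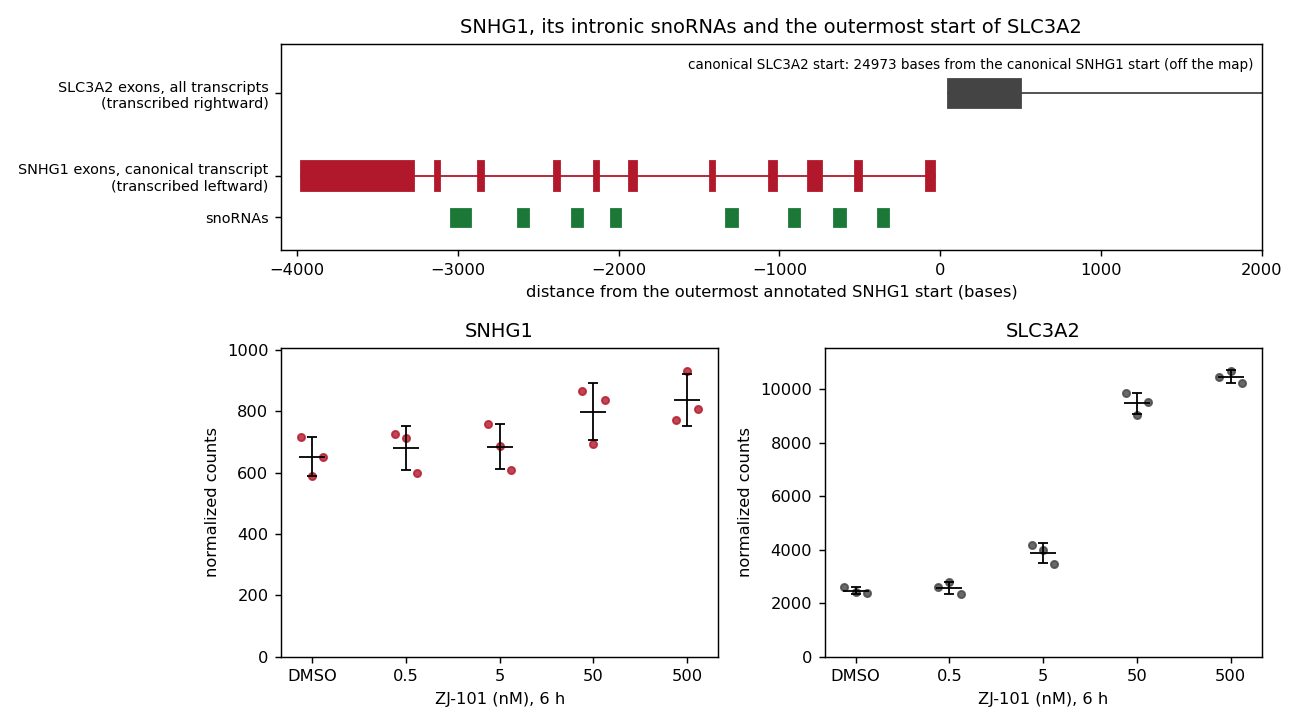
Top, map of the canonical SNHG1 exons, its 8 snoRNAs in the introns, and the first SLC3A2 exon, by distance from the outermost SNHG1 start in bases. Bottom, normalized counts of SNHG1 and SLC3A2 by dose of ZJ-101 in nM, with 1 point per library and the mean and SD of 3, where SLC3A2 goes from about 2478 in DMSO to 10470 at 500 nM and SNHG1 from 652 to 836.

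Reads in exons that 2 genes share can be split between them, and the sources do not say whether counting used the strand. The exons of SNHG6 (58.9%), SNHG8 (37.6%), ZFAS1 (36.4%), SNHG7 (30.3%) and SNHG16 (28.5%) lay furthest inside exons of the other strand. None of these 5 passed at 500 nM, where 17.8% of all tested genes did. PRSS12, the gene opposite SNHG8, fell by 0.46 (adjusted p = 0.013), and LRRC75A, opposite SNHG29, fell by 0.53 (adjusted p = 0.0086). Of the 15 tested host genes with under 10% of their exon bases in another gene, 7 passed at 500 nM, with SNHG4 the one left out. Whether exon overlap affected the calls was not tested.

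The wider pathway was followed with lists of related genes, read against the same background of 7.69% up and 10.1% down at 500 nM. Of the 35 protein-coding snoRNA hosts, most of which encode ribosomal proteins or nucleolar factors, 7 rose, 0 fell and 28 did not pass, with a median log2 fold change of 0.02. HSPA8, the constitutive HSP70 chaperone and the host of SNORD14 genes, went from 30834 ± 1800 to 72683 ± 839 normalized counts (log2 fold change 1.24, limma adjusted p = 1.9e-11). NOP56, a core protein of box C/D particles and a snoRNA host itself, rose by 0.34 (adjusted p = 0.001). EIF4A1, an RNA helicase of translation initiation, rose by 1.35 from only 12.3 normalized counts, and 42.1% of its exon bases are shared with a readthrough gene. Of the other non-coding hosts, DANCR had a log2 fold change of 0.05 and EPB41L4A-AS1 of -0.31, and neither passed (adjusted p = 0.650 and 0.105).

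Among the 17 tested genes for snoRNA-protein particles, 6 rose and 0 fell, at a median of 0.11. NOP56 was the largest of them, followed by NAF1 (0.31, adjusted p = 0.015), which assembles H/ACA particles, and RRP9 (0.27, adjusted p = 0.015), which binds the U3 RNA. Of the 18 nonsense-mediated decay factors 4 rose and 0 fell, at a median of 0.09, with DHX34 (0.30, adjusted p = 0.001), SMG8 (0.26, adjusted p = 0.022) and SMG5 (0.21, adjusted p = 0.002) the largest. UPF1, the central helicase of the pathway, was the fourth. Of 12 protein-coding transcripts known to be removed by nonsense-mediated decay 2 rose, TBL2 (0.36) and SMG5, and 10 did not pass, at a median of 0.11. At 50 nM these lists held 5, 1, 0 and 1 genes that rose and 0 that fell, in the same order, where 2.29% of all tested genes rose and 3.71% fell.

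**Figure D5:**
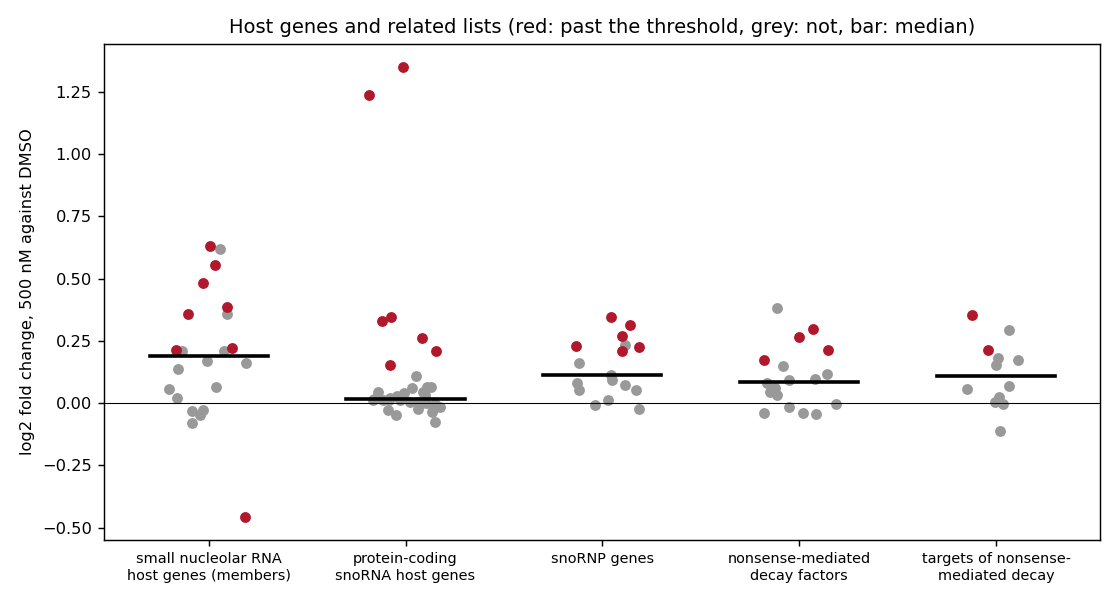
Log2 fold change at 500 nM against DMSO (vertical axis) of each tested gene of the host genes and 4 related lists (horizontal axis), with red for genes past the threshold and a bar at the median. The median of the host genes is 0.19, above the medians of 0.02 to 0.11 of the lists, and HSPA8 and EIF4A1 stand alone above 1.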

How the data were processed

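Poly-A RNA of 15 dishes of MDA-MB-231 cells was sequenced by the study. The deposited values are a signal, normalized counts: the authors mapped read pairs to hg38 (HISAT2), took gene counts from htseq-count and scaled every library by the size factor from DESeq2. The annotation was the GENCODE release current at the time, and its number, the tool versions and strandedness are not given in the sources used here. 1 line without a gene was left out.

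limma 3.58.1 (R 4.3.3) was fitted with a mean-variance trend to log2(normalized count + 1) for 13561 genes (those averaging 10 or more), with all 5 groups in 1 fit (10 residual degrees of freedom), each dose and each pair of neighbouring doses as contrasts, and the slope over dose ranks in a second fit. p-values were adjusted over all tested genes (Benjamini-Hochberg, threshold 0.05). Intervals are 95% intervals of that fit. A fold change on this scale understates the change of genes with low values. A share of genes called over all tested genes is given beside the counts of these fits with all libraries, in place of a test of the list.

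For edgeR 4.0.16 (quasi-likelihood) and DESeq2 1.42.0, reads were recovered by dividing each library by its smallest step. All values (100.0%) came out whole within 0.001, none being further than 1.19e-04 from a whole read. The size factors ran from 0.916 to 1.13, and those of 2 libraries were so close to 1 that their steps nearly equal whole numbers; reads there were recovered in the same way. Between replicates of a group the counts differed beyond sampling noise (chi-square over its degrees of freedom 2.04 to 16.5), so no library was a duplicate. The highest values were those of replicate 2 at 0.5 nM.

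Positions and exon overlaps are from GENCODE 44, snoRNA positions and promoters from RefSeq. The host genes and the related lists were chosen with earlier results of these data known. All host genes could be named. From each related list, up to 3 rises and 3 falls past the threshold at 500 nM were named, and UPF1, DANCR, EPB41L4A-AS1, the neighbours and the exon-sharing genes were named in addition. Scripts were tested on simulated data. Only a selection of sequences is printed.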

Additional observations from a re-analysis of the deposited data

How the results depend on the processing

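Of 223 pairs of a called host gene at 500 nM and an alternative setting, 202 kept the call, 21 lost it and 0 reversed. GAS5, SNHG4 and SNHG15 kept it throughout, and SNHG3 lost it most often, in 12. Leaving out 1 library at a time gave 3 to 10 host genes past the threshold at 500 nM (8 with all libraries), 4 to 9 by the slope (7 with all) and 0 to 4 at 50 nM (0 with all). The lowest counts at 500 nM and by the slope came without replicate 2 of DMSO (3 and 4) and without replicate 2 of 500 nM (4 and 4). Without replicate 2 of DMSO the share of host genes passing, at 500 nM and by the slope, was close to that of all tested genes. At 50 nM, 4 passed without replicate 2 of 0.5 nM and 2 without replicate 2 of 50 nM. The other settings that moved a count by over 1.5 times were an adjusted p under 0.1 (2 at 50 nM), a fit to only the 6 libraries compared (4 at 50 nM), the slope over the 12 treated libraries (3) and, chosen after seeing the data, a correction for transcript length and GC content in every library (1 at 50 nM). Smaller moves at 500 nM were 6 with DESeq2, 7 without the filter, 9 with that correction and 10 in the fit to 6 libraries. The causes were not tested. Unless a share is named, these counts come without that of all tested genes in the same setting.

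Replicate numbers did not pair the samples: the deviations of samples with the same number correlated at -0.09 to 0.10 across genes (30 pairs), those with other numbers at -0.13 to 0.12 (60 pairs). With the replicate number as a block, 8 host genes passed at 500 nM, 6 by the slope (GAS5 being lost, adjusted p = 0.051) and 0 at the other doses and steps.

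With 3 libraries per group, changes under about 1.2-fold passed only for genes with tight replicates such as GAS5, and genes with fewer than about 50 normalized counts (SNHG9, SNHG20) had standard errors above 0.2 on the log2 scale. Host genes under the minimum of 10 were not tested.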
